A study of Mus musculus with 64 samples.

Results

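Clone T is 1 of 7 clonal lines that the study grew from single cells of a pancreatic tumor line of a KPC mouse, whose tumor arises under Pdx1-Cre with 1 mutant Trp53 allele (R172H) among its engineered alleles on a mixed C57BL/6 background. All 7 clones share these alleles, and each is 1 clone, so it stands for itself and not for a class of clones. The 4 mono-culture libraries labeled clone T were compared with the 24 mono-culture libraries of the other 6 clones (E, H, K, M, N and V, 4 libraries each), out of 64 libraries of 8 lines in the series. The KPC1 line was left out. The question was which genes were on, off, highest or lowest in clone T. A gene was called highest or lowest when clone T differed from each of the 6 clones by at least 1 on the log2 scale, with an adjusted P under 0.1 in every one of the 6 pairwise tests. The study places clone T with clones K, M and N in 1 metabolic group, and clones E, H and V in the other.

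Pancreatic ductal tumors keep, to varying degrees, the transcription factors that specify foregut endoderm and pancreas, among them Pdx1, Hnf4a, Gata6 and the Onecut and Foxa families. Cells that keep many of these factors tend to retain keratins and junction proteins, whereas cells that lose them tend to express mesenchymal matrix genes and factors such as Snai2. Clones from a single tumor share their driver mutations and can still hold different sets of such genes.

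The clone T libraries held between 15755787 and 18781361 counts, within the range of the 28 mono-culture libraries (11661214 to 21333683). Over the 4 libraries together, 3 counts were worth 0.04374 CPM, the count of a gene scaled to a common library size, which was taken as the floor for counting error. The clone T libraries correlated with each other at r between 0.987 and 0.995 over 13509 genes, and with libraries of other clones at r of at most 0.973. The library numbers in the labels were split here into a first series (1 to 43) and a second (44 to 64). No label names these as batches. Replicates 2 and 4 of clone T fall in the first and replicates 1 and 3 in the second. Clone K has libraries of the second series only, and clones E, N and V of the first only. A value for 1 series alone thus compares clone T with another set of clones, and series and clones cannot be told apart in it. Replicate 4 stood apart from the other clone T libraries in several gene groups, and its list medians, computed from log2(CPM + 0.5), are given beside those where it lay farthest away. The tumor epithelial markers Krt8, Krt18 and Krt19 were abundant in clone T (mean 1088, 1463 and 920 CPM), whereas Epcam was at 0.134 CPM in clone T and at most 0.372 CPM in any other clone. The fibroblast genes Dcn, Lum, Postn and Thy1, the leukocyte genes Ptprc, Cd3e, Adgre1 and Tyrobp, the endothelial gene Cdh5 and the glial gene Sox10 had no count in any clone T library. Other members of these lists were present, with 9 of 20 fibroblast markers at 1 CPM or more (among them Fbln2 at 242 CPM), summed endothelial markers at 62.4 to 77 CPM and the leukocyte marker Cd68 at 18.4 CPM. These are bulk libraries, so a gene expressed in fewer cells and one expressed less in every cell cannot be told apart.

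Clone T differed from the mean of the other clones in fewer genes than any other clone did. Against the mean of the 6 clones on the log scale, 3818 of 13509 genes (28.3%) were higher in clone T and 3235 (23.9%) were lower, together 7053 (52.2%), fewer in each direction than for any other clone treated the same way. It ranked first of 7 clones in mean CPM for 8.35% of the genes and last for 8.05%, against 10.7 to 18.8% and 11.2 to 19.4% for the other clones. Of all genes, 58 (0.429%) were highest and 38 (0.281%) were lowest in clone T. The other clones had 46 (clone E) to 215 (clone V) highest genes and 81 (clone N) to 310 (clone K) lowest genes by the same rule. No gene was on in clone T alone, at 1 CPM or more against a clone mean under 0.1 CPM in each other clone, and 2 genes, Cd38 and Zfp941, were off in clone T alone. Whether the number of such genes differs between clones was not tested.

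Clone T was closest to clones E and N. The correlation of clone mean log2 CPM with clone T over 13509 genes was 0.973 for clone E, 0.970 for clone N, 0.958 for clone M, 0.930 for clone K, 0.928 for clone H and 0.913 for clone V. These points share 1 set of clone T libraries. Pairwise tests called 2832 genes (21%) higher and 2608 (19.3%) lower in clone T than in clone E. Against clone N, 3543 genes (26.2%) were higher and 3312 (24.5%) lower in clone T, and against clone M, 3650 (27%) and 3786 (28%). The more distant clones gave 4114 (30.5%) and 4055 (30%) for clone H, 4558 (33.7%) and 4502 (33.3%) for clone K, and 4412 (32.7%) and 4517 (33.4%) for clone V. Clone E and clone T are in different metabolic groups of the study. Among the 58 highest genes, the next clone in the order of levels was N for 31, E for 11, M for 6, V for 6, H for 3 and K for 1. Among the 38 lowest genes it was N for 12, M for 11, E for 6, H for 4, K for 3 and V for 2. Both sets were called from these same libraries, and the order over all genes was not counted. No likeness is read from these counts.

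Among named highest genes at 5 CPM or more in clone T, Thbs2, Vsig1, Myrf, Tc2n and Vil1 had the largest log2 differences from the nearest clone. Of the 58, 54 were protein coding, 7 were predicted gene models, 34 reached 5 CPM in clone T, and 12 passed the filter on low counts only because of clone T. In 44 of the 58, all 4 clone T libraries lay above all 24 others, a pattern that 163 of all genes (1.21%) had, and since the call used the same libraries nothing is read from that count.

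Several of the named highest genes encode secreted or matrix proteins. Thbs2 (chr17:14665500-14694235), the matricellular protein thrombospondin-2, was at 29.39, 37.96, 28.55 and 57.44 CPM in replicates 1 to 4 of clone T and between 0 and 2.29 CPM in the 24 other libraries. The groups were far apart, and the nearest clone, N, had a mean of 1.41 CPM. The log2 difference from clone N was 4.76 ± 0.35 (SE, n = 4 libraries each; largest adjusted P over the 6 clones 5.26e-11). Fbln5, an elastic fiber protein, was at 51.8, 78.2, 62.6 and 108 CPM in clone T and at 0 to 40.4 CPM elsewhere. Only clone N came within reach (mean 19.7 CPM), and the log2 difference from it was 1.93 ± 0.29. Pcsk6, a proprotein convertase that processes secreted precursors, was at 123, 137, 125 and 142 CPM in clone T and at 6.37 to 44.4 CPM in the other libraries. Hgfac, the protease that activates hepatocyte growth factor, was at 65.5 to 76.5 CPM against at most 33.6 CPM in any other library.

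Il1rn (chr2:24336853-24351494), the secreted antagonist of the interleukin-1 receptor, was also called highest. Its values were 916, 877, 1118 and 928 CPM in clone T, against 4.40 to 351 CPM in the other libraries. Clone E (mean 283 CPM) was nearest, with a log2 difference of 1.76 ± 0.39 (largest adjusted P 0.000865). Selp, the adhesion receptor P-selectin, was at 17.4 to 29.6 CPM in clone T, with 1 library of another clone at 12.7 CPM and a nearest clone mean of 5.87 CPM (clone N). Adamts1, a matrix metalloprotease, was also called highest, although its clone T values spread from 9.15 to 38.2 CPM and the lowest of them lay under the highest value elsewhere (9.61 CPM).

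Other highest genes belong to epithelial membranes and junctions. Vsig1 (chrX:140907608-140939472), a junctional immunoglobulin protein of gastric epithelium, was at 68.7, 69.3, 82.0 and 53.2 CPM in clone T and at 0 to 9.44 CPM elsewhere. The clone nearest to it, N, had a mean of 6.17 CPM, and the log2 difference was 3.46 ± 0.26 (largest adjusted P 6.50e-11). Vil1, the actin bundler of microvilli, was at 9.82, 7.18, 9.09 and 4.89 CPM against at most 2.24 CPM. Dsc2, a desmosomal cadherin, was at 20.5 to 29.5 CPM against at most 11.5 CPM, and outside clone T only clone N had a mean over 5 CPM (8.26 CPM). Itga1, the integrin subunit alpha-1 that pairs with beta-1 to bind collagen, was at 5.798, 4.337, 6.96 and 5.184 CPM against at most 3.06 CPM.

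The remaining named highest genes act inside the cell. Myrf, a membrane-bound transcription factor, was at 8.61, 5.57, 7.60 and 4.65 CPM in clone T and at most 1.48 CPM in any other library. Tc2n, a C2-domain protein, was at 28.3, 36.03, 27.9 and 42.18 CPM against at most 8.65 CPM. Both were separated from every other library. Prkar1b, a regulatory subunit of protein kinase A, was at 22.7 to 32.6 CPM with a log2 difference of 1.96 ± 0.25 from clone N. Gfpt2, an enzyme at the entry of the hexosamine pathway, was at 17.7 to 30.8 CPM with a difference of 1.58 ± 0.28 from the same clone. Kif5c, a kinesin heavy chain, varied more, at 36.34, 21.26, 30.03 and 11.25 CPM against at most 10.8 CPM elsewhere. Ttc36 was at 8.25 to 12.8 CPM against at most 5.99 CPM.

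**Figure D1:**
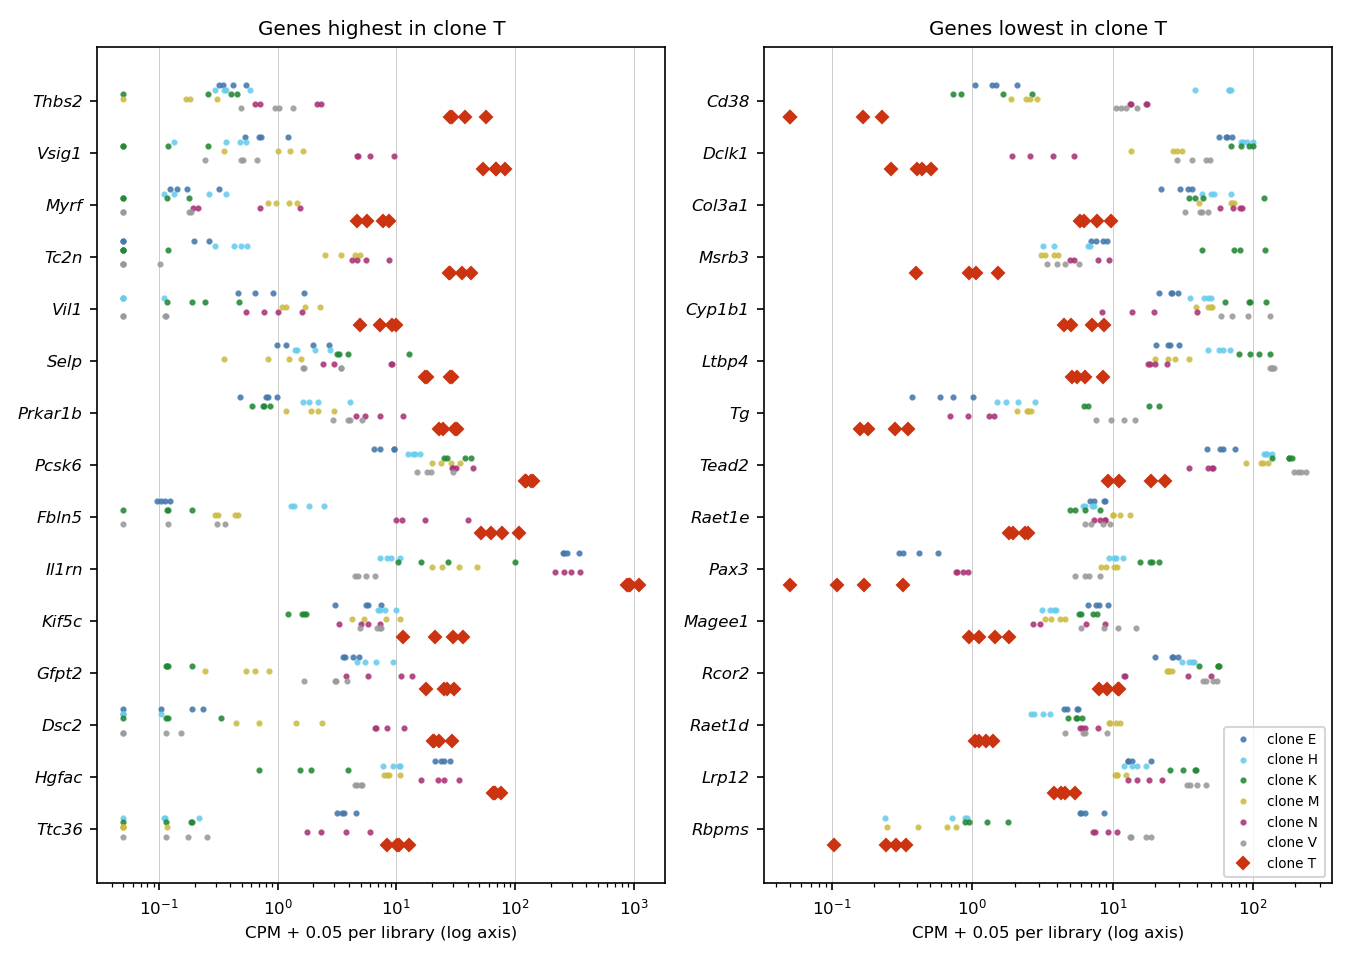
CPM plus 0.05 in each mono-culture library, on a log axis, for the 15 named genes highest in clone T (left) and the 15 named genes lowest in clone T (right), with 1 point for each of the 4 libraries of each clone. The clone T libraries (red diamonds) lie to the right of all other points for all 15 highest genes, and to the left for 12 of the 15 lowest genes, with overlap for Cyp1b1, Pax3 and Rbpms.

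Tc2n and Fbln5 are neighbors. Tc2n (chr12:101645443-101718523) and Fbln5 (chr12:101746565-101819055) lie on the minus strand of GRCm38 with no other tested gene between them, and both were highest in clone T with clone N next. Of the tested genes on the same chromosome, 4 further pairs of called genes lay within 3 positions of each other. Pcsk6 and the predicted gene Gm20684 on chromosome 7, Tmem25 and Ttc36 on chromosome 9, and Ifi27l2b and Serpina3n on chromosome 12 were all called highest, and Hgfac on chromosome 5 was highest beside Dok7, which was lowest. Tmem25, Ifi27l2b, Serpina3n, Dok7 and Gm20684 are named here because of their position. Promoters, taken as the 250 bases before the RefSeq start on GRCm38.p6, could be matched for 42 of the 58 highest and 28 of the 38 lowest genes. They held a median (upper middle value) of 8 and 12 CG dinucleotides. The median was 6 over 27025 promoters, but these include genes not tested here and use the first listed start of each gene. For the called genes the start nearest the GENCODE start was used, so nothing is read from the difference. Those of the neighboring pair are printed with those of Thbs2, the highest gene farthest from the next clone, and of Zfp941, which had no count in clone T. Capitals mark CG dinucleotides, and each sequence runs 5′ to 3′ on the strand of the gene. The windows are chr12:101718524-101718773 (minus) for Tc2n, chr12:101819120-101819369 (minus) for Fbln5, chr17:14694263-14694512 (minus) for Thbs2 and chr7:140822179-140822428 (minus) for Zfp941.
Tc2n: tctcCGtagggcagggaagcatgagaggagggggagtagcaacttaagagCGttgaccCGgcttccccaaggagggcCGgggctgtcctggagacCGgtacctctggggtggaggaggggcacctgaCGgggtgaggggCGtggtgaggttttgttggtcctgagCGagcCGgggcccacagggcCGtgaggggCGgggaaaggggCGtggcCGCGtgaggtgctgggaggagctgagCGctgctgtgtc
Fbln5: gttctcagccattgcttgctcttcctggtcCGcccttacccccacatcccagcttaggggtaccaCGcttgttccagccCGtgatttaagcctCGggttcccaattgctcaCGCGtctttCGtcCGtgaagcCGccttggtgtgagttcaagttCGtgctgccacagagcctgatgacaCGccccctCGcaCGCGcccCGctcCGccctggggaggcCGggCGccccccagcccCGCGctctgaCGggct
Thbs2: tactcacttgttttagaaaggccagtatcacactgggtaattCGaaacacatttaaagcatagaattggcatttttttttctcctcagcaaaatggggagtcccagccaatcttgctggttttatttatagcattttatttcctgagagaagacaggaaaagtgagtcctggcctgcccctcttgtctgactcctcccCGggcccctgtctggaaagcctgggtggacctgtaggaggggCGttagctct
Zfp941: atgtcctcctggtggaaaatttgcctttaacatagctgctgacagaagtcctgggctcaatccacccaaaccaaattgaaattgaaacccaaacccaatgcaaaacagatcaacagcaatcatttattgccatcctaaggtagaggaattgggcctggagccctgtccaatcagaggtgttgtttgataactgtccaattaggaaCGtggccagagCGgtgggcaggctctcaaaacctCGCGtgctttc
The windows of Tc2n and Fbln5 held 15 and 21 CG dinucleotides, and 27.5% and 16.1% of all promoters held at least as many. Those of Thbs2 and Zfp941 held 3 and 4, which 70.4% and 61.9% of promoters reached. Methylation was not measured, and these counts describe the sequence alone.

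The lowest genes of clone T included 2 that were off. Zfp941, a zinc finger protein (chr7:140807449-140822178), had no count in any of the 4 clone T libraries, and every library of the other clones held between 0.903 and 7.27 CPM. With the floor of 3 counts over the 4 libraries, it was at least 32.1-fold lower than in the nearest clone, K (1.41 CPM), and at least 99.4-fold lower than the mean of the 6 clones. Cd38 (chr5:43868553-43912375), an ectoenzyme that consumes NAD, was at 0.115, 0, 0 and 0.177 CPM in clone T and at 0.674 to 69.8 CPM elsewhere. The nearest clone was again K (1.41 CPM), with a log2 difference of -4.14 ± 0.62 (largest adjusted P 4.94e-06). Cpeb1, a translational regulator of polyadenylation, also had no count in clone T. It lies outside the naming rule and was picked with its values known. It was at least 9.57-fold lower than in the nearest clone, H, which itself was at 0.418 CPM.

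Of the 38 lowest genes, 37 were protein coding, 1 was a predicted model and 24 reached 5 CPM in the mean of the other clones. In 28 of them all 4 clone T libraries lay below all 24 others, as was so for 90 of all genes (0.666%). The call used the same libraries, so nothing is read from that count. Among regulators of cell state, Dclk1 (chr3:55242364-55539068), a kinase known as a marker of tuft cells, was at 0.459, 0.214, 0.387 and 0.354 CPM in clone T and at 1.87 to 100 CPM in the other libraries. Clone N was nearest (3.34 CPM), and the log2 difference from it was -3.23 ± 0.42 (largest adjusted P 8.16e-07). Tead2, a DNA-binding partner of YAP and TAZ, was at 11.1, 18.8, 9.28 and 23.7 CPM against 35.1 to 241 CPM elsewhere. Pax3, a neural crest transcription factor, was at 0 to 0.268 CPM and overlapped with clone E (mean 0.351 CPM). Rcor2, a transcriptional corepressor, was at 7.98 to 11.1 CPM against at least 12.1 CPM. Rbpms, an RNA-binding protein, was at 0.0535 to 0.287 CPM and overlapped with the lowest library of the other clones (0.189 CPM).

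Some of the lowest genes encode matrix proteins. Col3a1, a fibrillar collagen chain, was at 5.798, 6.157, 9.666 and 7.718 CPM in clone T and at 22 to 120 CPM in the other libraries. All clone T libraries were below all others, and the log2 difference from the nearest clone, E, was -2.08 ± 0.31 (largest adjusted P 6.72e-06). Ltbp4, which binds latent TGF-beta, was at 5.09 to 8.48 CPM against at least 17.8 CPM. Col7a1, the anchoring fibril collagen, was at 1.16 to 1.83 CPM against at least 1.85 CPM, a narrow gap from a clone M mean of 3.20 CPM.

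The rest of the named lowest genes had varied functions. Cyp1b1, a cytochrome P450, was at 4.48, 8.62, 4.96 and 7.13 CPM, overlapping with 1 library of another clone at 8.35 CPM, and its nearest clone was N (20.4 CPM). Msrb3, a methionine sulfoxide reductase, was at 0.345 to 1.47 CPM against at least 3.03 CPM. Raet1d and Raet1e, which encode ligands of the receptor NKG2D on natural killer cells, were at 1.00 to 1.35 and 1.78 to 2.46 CPM against at least 2.58 and 4.92 CPM. Their annotated spans overlap on chromosome 10 (chr10:22360552-22374139 and chr10:22158569-22374139), so the split of reads between them is uncertain. Lrp12, of the low-density lipoprotein receptor family, was at 3.77 to 5.35 CPM against at least 10.4 CPM. Magee1, a MAGE family gene on the X chromosome, was at 0.902 to 1.78 CPM against at least 2.68 CPM. Tg, thyroglobulin, was at 0.107 to 0.295 CPM against at least 0.323 CPM, with a largest adjusted P of 0.055 among its 6 comparisons.

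Of the gene lists with at least 10 tested genes, the pancreatic and endodermal transcription factors had the highest median. Of 17 tested, 12 were higher and 1 was lower in clone T than in the mean of the 6 clones, with a median log2 difference of 1.20, against 28.3% and 23.9% of all genes and a median of 0.01. Clone T had the highest clone mean for 6 of them (35.3%, against 8.35% of all genes). The shares of 28.3% and 23.9% of all genes also stand beside the counts of the lists below. The median was 0.957 in the first series alone and 1.13 in the second alone. Hnf4a, a nuclear receptor of endodermal epithelium, was at 96.6, 71.4, 102 and 48.5 CPM in clone T. Clone N held it too (mean 52.9 CPM) and clone E at 14.2 CPM, while clones H, K, M and V were under 1 CPM. The log2 difference from the mean of the 6 clones was 6.00 ± 0.22 (adjusted P 1.56e-17).

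Pdx1, the founding transcription factor of the pancreas and the source of the promoter that drives Cre in this mouse, was at 188, 196, 204 and 211 CPM in clone T. All 4 libraries lay above the 48.3 to 162 CPM of the others, and the log2 difference from the mean was 1.24 ± 0.16 (adjusted P 3.84e-07). It was not called highest, because clone M (147 CPM) was within 0.44 on the log2 scale. Onecut2, a hepatic and pancreatic factor, had a mean of 221 CPM in clone T and 129 CPM in clone N. Klf5, a factor of dividing epithelium, had a mean of 148 CPM in clone T and at most 116 CPM elsewhere. Bhlha15, a factor of secretory cells, was at 5.40, 3.75, 5.41 and 1.41 CPM, with clone N at 2.79 CPM and clone E, the next, at 0.364 CPM.

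The exception was Gata6, the 1 member that was lower. It was at 0.0926 CPM in clone T and at 0.0179 CPM in the lowest other clone, against 22.8 CPM in the highest, with a log2 difference of -4.39 from the mean (adjusted P 0.000138). Clone T thus held Hnf4a and Pdx1 with almost no Gata6, a pattern it had in common with clone N. Gata6 and Klf5 were chosen after their values were seen. Gata4, a paralog of Gata6 chosen in the same way, was at 55.1 CPM in clone T and was not called (adjusted P 0.292), and Cdx2, an intestinal factor, was at 120 CPM, below clones E, K and M (153, 126 and 216 CPM).

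**Figure D2:**
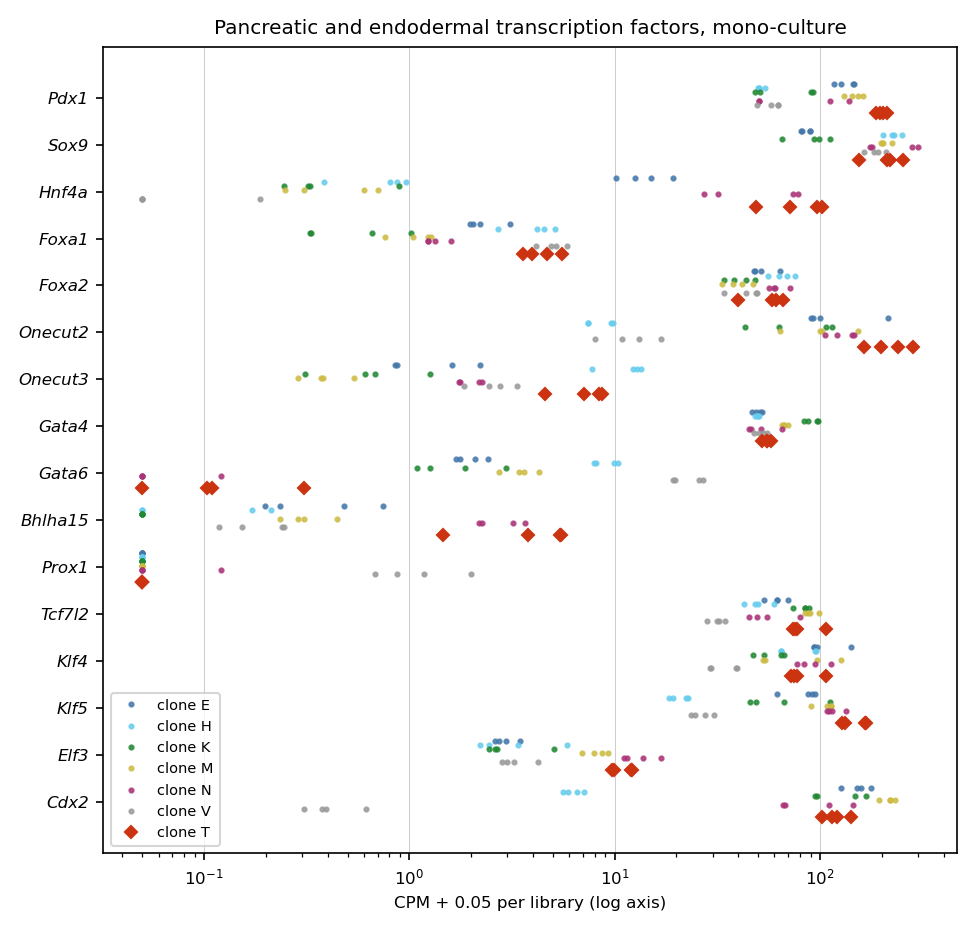
CPM plus 0.05 in each mono-culture library, on a log axis, for 16 of the 17 tested pancreatic and endodermal transcription factors, with 4 points for each clone. The clone T libraries (red diamonds) lie above every other library for Pdx1 and far above clones H, K, M and V for Hnf4a, whereas Gata6 is near 0 in clones T and N only.

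Epithelial genes were more often higher and mesenchymal genes more often lower in clone T. Of 20 tested epithelial and ductal genes, 13 were higher and 3 lower, with a median log2 difference of 0.47. Of the 29 listed, 13 were under 1 CPM in clone T. The summed level of the list was 6700 to 10200 CPM in clone T, within the 3450 to 17600 CPM of the other libraries. The median log2 difference was 0.12 in the first series alone and 0.517 in the second, and by library it was 0.114 in replicate 4 against 0.319 to 0.408 in the others. Krt19, the ductal keratin, was at 868, 891, 1176 and 746 CPM and overlapped with other libraries, of which the highest was at 812 CPM. Clone E was nearest (mean 727 CPM). The log2 difference from the mean was 1.31 ± 0.17 (adjusted P 6.22e-07). Ehf, an epithelial factor, had a mean of 8.86 CPM in clone T, under the 15.9 CPM of clone N, and Lgals4, an intestinal lectin, had 92.9 CPM, under clones E and N (149 and 163 CPM). Grhl2, a factor that maintains epithelial junctions, was at 5.86 to 7.23 CPM with a highest other library of 7.25 CPM.

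Of 35 tested genes of the epithelial-mesenchymal transition (EMT), 18 were lower and 5 higher, with a median of -0.47. Snai2, a repressor of epithelial genes, was at 4.08, 2.89, 2.45 and 3.42 CPM, below every other library (5.45 to 52.7 CPM), and its log2 difference from the mean was -2.06 ± 0.15 (adjusted P 1.72e-11). Cdh2, N-cadherin, was at 63.7 to 65.4 CPM, close to clones M and N (57.5 and 78.7 CPM) and under the other 4. Some members were called in the other direction. Twist2, an EMT factor, was higher (47.3 CPM, log2 difference 1.15 ± 0.10), as was Tgfbi, a TGF-beta-induced matrix protein (13.6 CPM, 2.23 ± 0.18), although each overlapped with another clone. The EMT median was -0.741 in the second series alone and -0.278 in the first series alone. Vim, a mesenchymal intermediate filament, was at 4786 CPM in clone T and at 3503 to 7206 CPM elsewhere (adjusted P 0.981), and is named outside the rule with its values known.

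Proteases and YAP and TAZ targets were lower more often than higher. Of 36 tested proteases and inhibitors, 14 were lower and 9 higher (median -0.45, with -0.123 in the first series alone and -0.426 in the second). Adamts9, a secreted metalloprotease, was at 10.96 to 13.15 CPM against a clone N mean of 20.4 CPM and 43.6 to 92.6 CPM in the other clones (log2 difference -2.11 ± 0.21). Mmp14, a membrane metalloprotease, had a mean of 39.6 CPM, under clones H, K, M and V and above clones E and N. Of 24 tested YAP and TAZ targets, 13 were lower and 5 higher (median -0.21), but the median was 0.00971 in the first series alone, -0.489 in the second and 0.151 in coculture. The 4 with the smallest P values were all higher, namely Foxf2 (log2 difference 1.53), Dock5 (1.10), F3 (1.02) and Myof (0.52). Of 38 tested collagens, laminins and integrins, 16 were lower and 10 higher (median -0.20, with -0.0436 in the first series alone and -0.38 in the second, and -0.0253 in replicate 4 against -0.404 to -0.253 in the others). Itgb4, the integrin subunit of hemidesmosomes, was higher (306 CPM, log2 difference 1.51 ± 0.10), with clone H at 289 CPM, and Itgb8 was lower (2.07 CPM, -2.09 ± 0.26), with clone M at 1.99 CPM.

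Genes of the integrated stress response, in which Atf4 raises amino acid synthesis and transport, had positive medians in 3 clone T libraries and not in replicate 4. Of 42 tested, 23 were higher and 3 lower, with a median of 0.40. By library, the median difference was 0.533, 0.425 and 0.645 in replicates 1 to 3 and -0.0945 in replicate 4. The fitted median was 0.548 without replicate 4 and 0.0652 in the first series alone. It was 0.927 in the second alone, where only clones H, K and M stand beside clone T. Slc1a4, a transporter of neutral amino acids, was at 231, 222, 285 and 166 CPM. All 4 libraries, replicate 4 included, were above every library of the other clones (at most 138 CPM), and the log2 difference from the mean was 1.496 ± 0.126 (adjusted P 2.22e-10). Slc7a11, the cystine transporter, had values of 491, 359, 411 and 158 CPM, and clone N was higher (mean 663 CPM). Stc2, a secreted glycoprotein, was at 44.07 to 46.95 CPM with clone N at 59.3 CPM.

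Asns, the enzyme that makes asparagine and the gene at the center of the study, was at 184, 171, 212 and 67.7 CPM in clone T. Clone N was higher (333 CPM), clones E and H were near it (154 and 156 CPM), clone V was at 119 CPM, and clones K and M were lower (49.99 and 32.26 CPM). The log2 difference from the mean was 0.56 ± 0.24 (adjusted P 0.0552), and it was -0.09 in the first series alone. Atf4 was at 589, 480, 619 and 317 CPM and was not called (0.24 ± 0.15, adjusted P 0.207). Replicate 4 was the lowest of the 4 clone T libraries for both genes, and also for Psph, of serine synthesis (mean 59.3 CPM, 0.75 ± 0.18), and Shmt2, of mitochondrial one-carbon metabolism (231 CPM, 0.38 ± 0.18). Of 22 tested enzymes of asparagine, aspartate, glutamine and glutamate, 14 were higher and 0 lower by edgeR, with a median of 0.33, and 0 were lower at an unadjusted P under 0.05 or by DESeq2. The median was 0.123 in the first series alone and 0.787 in the second, and by library it was 0.0148 in replicate 4 against 0.332 to 0.453 in the others.

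Among these enzymes, Asrgl1, an asparaginase that also cleaves isoaspartyl peptides, was at 15.8, 22.3, 21.4 and 27.8 CPM, and clone M was nearest (14.1 CPM). Its log2 difference from the mean was 2.50 ± 0.12 (adjusted P 7.81e-15). Slc25a12, the mitochondrial aspartate and glutamate carrier, was at 60.3 to 81.5 CPM with clone N at 64.7 CPM. Of 26 tested genes of the endoplasmic reticulum stress response, 20 were higher and 0 lower by edgeR (median 0.32, with 0.141 in the first series alone and 0.447 in the second; 0 lower also at an unadjusted P under 0.05 and by DESeq2). Hspa5, its main chaperone, was at 823, 893, 1045 and 663 CPM, above 5 clones and under clone N (1435 CPM). Xbp1, its transcription factor, was at 70.5 CPM and likewise second to clone N (89.8 CPM). Clone T ranked second for Dnajc3, Hsp90b1 and Derl1 as well, each under clone N.

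Antigen presentation and redox genes were higher in part of the list. Of 16 tested genes of MHC class I presentation, 9 were higher and 1 lower (median 0.41, with 0.539 in the first series alone and 0.691 in the second). By library the median was 0.488 in replicate 4 and -0.0104 to 0.23 in the others. H2-K1, a class I heavy chain, was at 54.6, 74.5, 68.2 and 97.0 CPM, within the range of clones E, M and N and over clones H, K and V, and its log2 difference from the mean was 1.12 ± 0.12. Tap2, a peptide transporter, was at 9.66 CPM, under clones M and N (14.9 and 17.97 CPM). Of 32 tested Nrf2 and glutathione genes, 17 were higher and 4 lower (median 0.34). Nqo1, a quinone reductase, was at 24.6 CPM in clone T, 24.2 in clone N and 17.7 in clone E, against at most 4.66 CPM in the others. Mgst1, a microsomal glutathione transferase, was at 150 CPM, near clone E (142 CPM). Of 35 tested interferon-stimulated genes, 8 were higher and 8 lower (median -0.01, with 0.0584 in the first series alone and -0.286 in the second), and replicate 4 had a median of 0.192 against -0.331 to -0.212 in the others.

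Signaling lists were mixed. Of 34 tested TGF-beta and BMP genes, 19 were higher and 6 lower (median 0.31, with 0.415 in the first series alone and 0.201 in the second). Clone T had the highest clone mean for 8 of the 34 (23.5%, against 8.35% of all genes). Ltbp1, which stores latent TGF-beta, was at 715, 745, 767 and 708 CPM, above every other library (290 to 626 CPM), with a log2 difference from the mean of 0.63 ± 0.08 (adjusted P 6.06e-07). Id4, a BMP-induced inhibitor of helix-loop-helix factors, was at 2.47 to 3.06 CPM with clone K next (1.35 CPM), while Bmp1, a procollagen protease, was lower (53.6 CPM, -1.09 ± 0.08). Of 37 tested Wnt, Notch and Hedgehog genes, 14 were higher and 13 lower (median 0.23, with 0.232 in the first series alone and -0.195 in the second). Notum, a Wnt deacylase, was at 2.76, 3.53, 2.64 and 15.4 CPM, with clone N at 4.07 CPM and clone M, the next, at 0.174 CPM. Of 21 tested genes of ERK output, 8 were higher and 3 lower (median 0.19, with -0.0407 in the first series alone and 0.509 in the second), and Epha4, an ephrin receptor, was at 47.87 to 54.97 CPM, below every other library (at least 57.3 CPM). Erbb3, a receptor of neuregulin, was at 13.7 to 17.3 CPM, above every other library (at most 9.78 CPM).

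Driver and tumor suppressor genes were lower in 11 and higher in 5 of 22 tested (median -0.15, with -0.0298 in the first series alone and -0.296 in the second). Cdkn2a, the tumor suppressor of the cell cycle on chromosome 4, was at 76.1, 84.6, 89.0 and 73.4 CPM, against a lowest other library of 82.9 CPM and a clone K mean of 492 CPM. Mtap, the methylthioadenosine phosphorylase gene near it in the genome, was at 43.3 to 48.9 CPM, below every other library (at least 52.1 CPM), with a log2 difference of -0.81 ± 0.09 (adjusted P 3.45e-08). Trp53 (260 CPM, -0.25 ± 0.06) was lower, and Myc (244 CPM, -0.12 ± 0.10, adjusted P 0.371) was not called. Of 39 tested genes of the cell cycle and replication, 20 were higher and 6 lower (median 0.32), but the median was 0.0332 in the first series alone and 0.926 in the second.

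Several other lists of at least 10 tested genes had medians closer to that of all genes, but the fibroblast markers, given below, did not. Of 53 tested respiratory chain subunits, 5 were higher and 6 lower (median 0.04), and edgeR called 0 of the 11 mitochondrially encoded genes (0 at an unadjusted P under 0.05, and 0 by DESeq2). By library, the median of the mitochondrially encoded genes was -0.546 in replicate 3 against -0.00791 to 0.0551 in the others. Of 26 tested glycolysis genes, 7 were higher and 4 lower (median 0.09), with 0.25 in replicate 4 against -0.154 to 0.0202 in the others. Of 32 tested genes of cholesterol and fatty acid synthesis, 12 were higher and 0 lower by edgeR (median 0.13, with 0.298 in the first series alone and -0.211 in the second; 0 lower also at an unadjusted P under 0.05 and by DESeq2), with library medians of -0.118 in replicate 1 and 0.382 in replicate 4. Hypoxia targets were higher in 4 and lower in 7 of 24 (median -0.16, with -0.091 in the first series alone and -0.25 in the second), and their library median was 0.155 in replicate 4 against -0.394 to -0.277 in the others. All 38 Hox genes in the count table were under 1 CPM in clone T, and the 2 that passed the filter (median -1.39) were not called. Chemokines and cytokines were higher in 12 and lower in 8 of 31 (median 0.03), and imprinted genes were higher in 6 and lower in 5 of 19 (median -0.12). Of 4 tested genes of X inactivation or the Y chromosome, 3 were higher (median 0.40), among them Ddx3y (102 CPM, clone H being higher at 150 CPM). Few marker genes of other cell types passed the filter. Of the fibroblast markers, 4 were higher and 5 lower of 12 tested. Their median of -1.05 was the lowest among lists with at least 10 tested genes, with -0.477 in the first series alone and -1.39 in the second. Of the glial and neural markers, 2 were higher and 1 lower of 6 (median 0.11). Of the endothelial markers 2 of 6 were higher (median 0.15), of the acinar and endocrine markers 2 of 3 (median 0.53), and of the leukocyte markers 1 of 1, Cd68, a lysosomal protein of macrophages (18.4 CPM against at most 15.8 CPM in another clone mean, log2 difference 1.11).

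**Figure D3:**
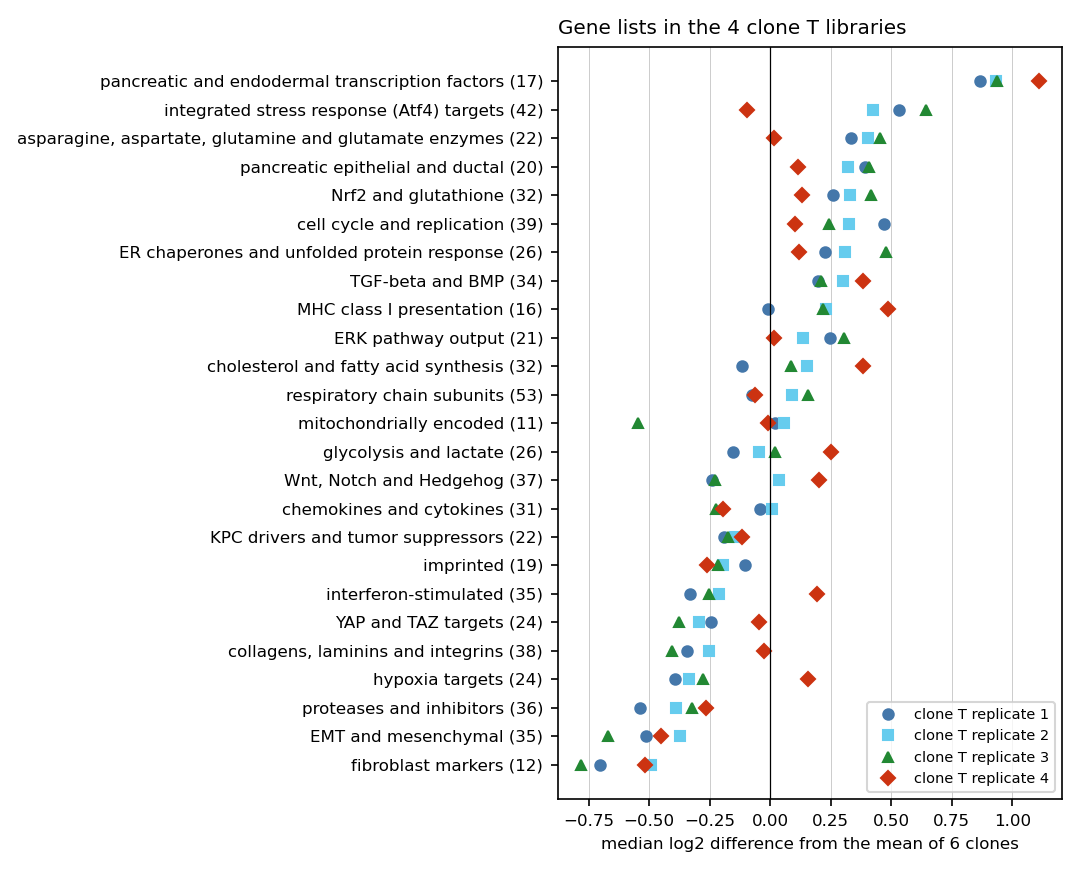
Median difference of log2(CPM + 0.5) from the mean of the 6 other clones, on the horizontal axis, for each gene list with at least 10 tested genes (number in parentheses), with 1 marker for each of the 4 clone T libraries. The pancreatic and endodermal transcription factors lie highest in all 4 libraries (0.867 to 1.11). Replicate 4 lies apart from the other 3 for the integrated stress response, hypoxia and interferon-stimulated genes, and replicate 3 for the mitochondrially encoded genes.

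Differences of clone T from the mean of the other clones varied by chromosome. Over genes with a mean of at least 1 CPM, the median difference of log2(CPM + 0.5) from the mean of the 6 clones was 0.20 over 750 genes of chromosome 5 and 0.18 over 405 genes of chromosome 14, where 54.5% and 51.4% of the genes were called higher. It was -0.22 over 318 genes of chromosome 18, where 55% were called lower, -0.16 on chromosome 13 and -0.14 on chromosome 12. The 4 clone T libraries were close together on each of these, for example -0.217 to -0.207 on chromosome 18. On chromosome 18 clone T was below the lowest of the other clones (-0.177), and on chromosome 2 the margin was smaller (-0.0539 against -0.0227). On chromosome 8 the clone T value (-0.0423) was below the lowest other clone (-0.0326) by less than the spread of its libraries (-0.0632 to -0.019). On chromosomes 5 and 14 another clone was higher than clone T, and on chromosomes 12 and 13 another clone was lower (-0.17 and -0.668). Genes of a chromosome are not independent replicates, no test was made across them, and DNA copy number was not analysed here. Onecut2, Cdh2, Dsc2 and Smad4 lie on chromosome 18, and Pdx1, Cdx2, Hgfac, Prkar1b and Cd38 on chromosome 5.

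**Figure D4:**
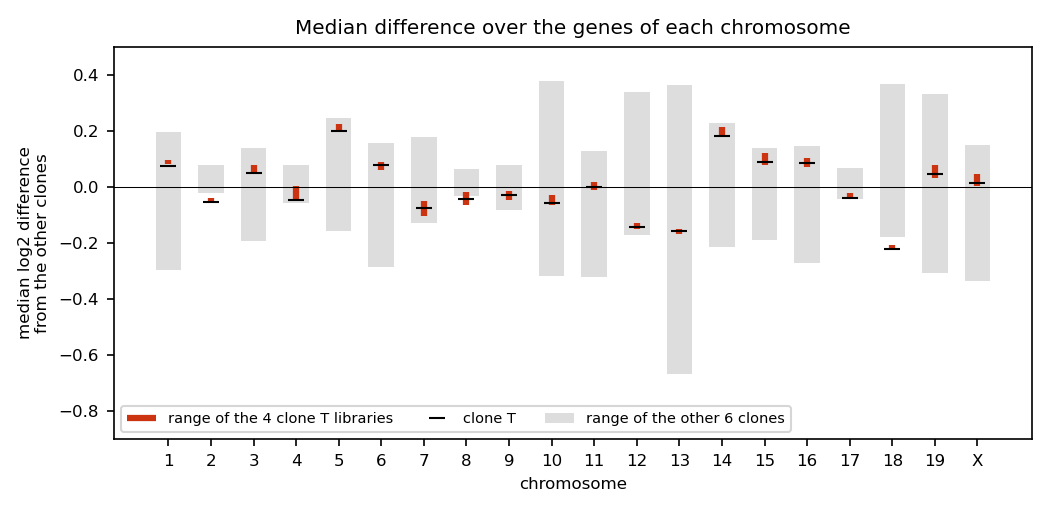
Median log2 difference over the genes of each chromosome with a mean of at least 1 CPM, with clone T as a black dash, the range of its 4 libraries in red and the range of the other 6 clones, each against the remaining clones, in gray. Clone T lies below the gray range on chromosomes 2 and 18, at its lower edge on chromosome 8, and near its top on chromosomes 5 and 14.

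The same contrasts were made in the coculture libraries, which came from GFP-positive tumor cells isolated by flow cytometry from 48 h cocultures with fibroblasts, 4 for each clone. They are separate libraries of the same lines. Of the 58 genes highest in mono-culture, 38 passed the filter in coculture. Of these, 8 were again highest, beside 19 of all 13399 genes tested there (0.142%). Higher than the mean of the 6 clones were 32, beside 3137 of all genes (23.4%). All 38 lowest genes passed. Of these, 6 were again lowest, beside 16 of all genes (0.119%), and 31 were lower than the mean, beside 2553 (19.1%). Clone T had the highest clone mean in coculture for 28 of the 58 genes and the lowest for 25 of the 38. Over the genes tested in both cultures, the median log2 difference was 3.33 in mono-culture and 1.94 in coculture for the 38 highest genes, and -2.84 and -1.31 for the 38 lowest. The genes were chosen on their mono-culture values, so the smaller coculture difference is not read as an effect of culture. Whether the difference itself depends on the culture was not tested.

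Fibroblast transcripts were more abundant in the coculture libraries. The summed level of 20 fibroblast markers was 346 to 662 CPM in the clone T mono-culture libraries, where 5 of the 20 had no count, 395 to 2860 CPM in the other mono-culture libraries and 1520 to 2080 CPM in the clone T coculture libraries, and the part of these transcripts in each result was not tested. Col3a1, itself a fibroblast marker, was at 224 CPM in clone T in coculture, within the 187 to 481 CPM of the other clones. Vsig1 (22.5 CPM against at most 4.33), Thbs2 (88.4 CPM against at most 31.7), Tc2n, Selp, Gfpt2 and Dsc2 were again highest. Cd38 (0.0816 CPM against at least 1.40), Zfp941 (0.0473 CPM against at least 1.40), Dclk1 and Cpeb1 were again lowest. Il1rn was at 182 CPM in clone T, a lower level than in mono-culture, with the next clone at 167 CPM. Pdx1 was no longer above the mean (log2 difference -0.47, adjusted P 0.168), and the median of the transcription factor list was 0.456. Some list medians had the opposite sign in coculture. Negative in mono-culture and positive in coculture were fibroblast markers (0.147), YAP and TAZ targets (0.151), collagens, laminins and integrins (0.183) and hypoxia targets (0.00396). The reverse held for MHC class I presentation (-0.0693), respiratory chain subunits (-0.136), cholesterol and fatty acid synthesis (-0.137) and Wnt, Notch and Hedgehog genes (-0.0936). The median of EMT genes was -0.0129. Other medians moved without a change of sign. Among them were interferon-stimulated genes (-0.0138 in mono-culture, -0.8 in coculture) and genes of the integrated stress response (0.403 and 0.635).

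**Figure D5:**
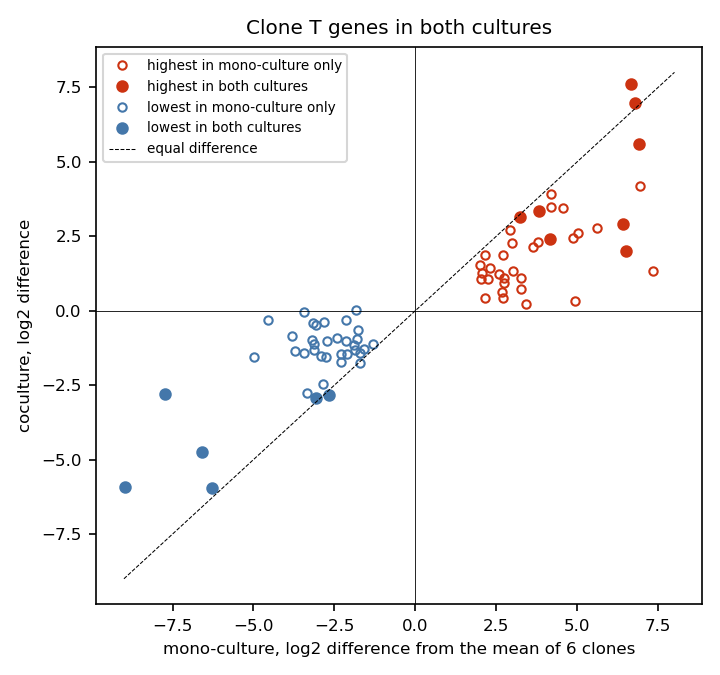
Log2 difference of clone T from the mean of the 6 other clones in mono-culture (horizontal) and in coculture (vertical), for the 38 highest (red) and 38 lowest (blue) genes that were tested in both, with 1 point for each gene, filled where the gene was called again. Most points lie between the dashed line of equal difference and 0, and the 4 lowest genes with the largest mono-culture differences are filled, while Fbln5, the highest gene with the largest one, is open. The genes were chosen on their mono-culture values.

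The calls were recomputed within each series of libraries. Within the first series, where clone K has no library, 57 genes were highest and 50 lowest, 40 and 30 of them shared with the calls from all libraries. Within the second series, where only clones H, K and M stand beside clone T, 270 and 253 genes were called, 50 and 30 of them shared. Among the 58 highest genes, both second-series libraries of clone T were above both first-series libraries for 18, the reverse held for 14, and the difference was over 2-fold for 4 (6.9%, against 0.718% of all genes).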

How the data were processed

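RNA-seq libraries of clone T and of 6 other clones were analyzed, with clone and culture taken from the labels. Libraries were polyadenylated, strand-specific and paired-end, and the labels do not say whether mono-cultured cells were sorted. The authors deposited raw read counts for 39017 genes. A second file that the authors deposited holds RPKM values for 49585 genes, in which library size and gene length are divided out. The submitters' processing notes name featureCounts, edgeR and the mm10 genome, and the aligner is not given in the sources used here. Positions came from GENCODE M21 (GRCm38), which held 13378 of the 13509 genes tested, and promoters from RefSeq (GRCm38.p6). No column of the tables lacked a sample.

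Counts were normalized by TMM, filtered with filterByExpr and fitted with edgeR 4.0.16 (R 4.3.3) by the quasi-likelihood test with 1 term per clone. Clone T was tested against the mean of the 6 clones, each weighted equally on the log scale, and against each clone, with Benjamini-Hochberg adjustment over all genes and a threshold of 0.1. Averaging on the log scale lets a clone that lacks a gene weigh heavily, so a fitted difference can differ in sign from the difference of mean CPM. Each line is 1 clone, so P values measure the spread between libraries of these lines, which may be technical, and say nothing of clones in general. The test was checked on simulated counts with the same mean in every clone except for genes changed in clone T, unlike the real data. Of genes changed there by log2 1 and -1 (50 each), 96% and 92% were called against the mean. Only 14% and 8% of them were called highest or lowest, against 100% and 96% at log2 2 and -2. Of all calls against the mean, 9.35% were of unchanged genes. Levels between genes were not compared, since CPM is not divided by length.

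Named genes were the 15 highest and the 15 lowest genes with the largest log2 difference from the nearest clone at 5 CPM or more (predicted models left out), the genes on or off in clone T alone, the members of each gene list that were highest or lowest or had 1 of the 4 smallest P values, and genes that the study discusses. A few members are named beyond this rule, and the text says so. A few items are not reported here. The genes to describe, the lists (written by hand) and the tests were chosen with earlier results of these data known. Alternatives were DESeq2 1.42.0, RLE factors, other filters and thresholds, limma 3.58.1 on log2 RPKM with pseudocounts of 1 and 0.1, each clone or library left out, a replicate block, the series of library numbers as a covariate or taken alone (the second series alone was added after the data were seen), coculture libraries and counts summed per clone. The 2 series were inferred from the library numbers in the labels (1 to 43 and 44 to 64), and no label names them as batches.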

Additional observations from a re-analysis of the deposited data

Results flagged for a closer look

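In the 4 clone T mono-culture libraries, 11 of 199 named genes and summed list levels had 1 library whose gap to the nearest other was, relative to the whole range, above Dixon's critical value, which chance gives in about 1 in 20 groups. Replicate 4 was the one apart for 6 genes. It was at 12.3 CPM for Epas1, a hypoxia-inducible factor, against 5.54 to 6.43 CPM in the other 3 libraries, and at 7.54 CPM for Car12, a carbonic anhydrase, against 5.16 to 5.46 CPM. It was also higher for Notum (15.4 against 2.64 to 3.53 CPM), Vldlr, a lipoprotein receptor (241 against 138 to 153 CPM), and Id4 (3.06 against 2.47 to 2.52 CPM), and lower for Shmt2 (120 against 255 to 277 CPM).

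Replicate 1 was apart for Insig1, a regulator of sterol synthesis (494 against 617 to 622 CPM), and for Slc16a1, a lactate transporter (344 against 411 to 420 CPM). Replicate 3 was apart for the mitochondrial gene mt-Nd6 (495 against 740 to 787 CPM) and for Slc25a12 (81.5 against 60.3 to 61.9 CPM). The summed level of the pancreatic and endodermal transcription factors was 1290 CPM in replicate 2 against 1360 to 1370 CPM in the others, a small gap that was large only beside the narrow range of the rest.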

How the results depend on the processing

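The counts of higher, lower, highest and lowest genes held within 1.5 times under DESeq2, RLE factors, both other filters, the series as a covariate and a threshold of 0.05. Exceptions follow, with the reported counts being 3818 higher, 3235 lower, 58 highest, 38 lowest, 0 on and 2 off. Within the first series alone 2057 genes were lower, 1814 of them shared, and within the second alone 270 were highest and 253 lowest. Without clone E there were 96 highest, 107 lowest, 1 on and 4 off, without clone N 120, 87, 3 and 5, without clone M 67 lowest and 3 off, and without clone H or V 1 gene on, fewer clones making the rule easier to meet. With limma, 19 were highest and 6 lowest at a pseudocount of 1, and 24 were lowest at 0.1. In coculture 19 were highest and 16 lowest. On RPKM values 0 were off. With counts summed per clone, which leaves clone T as 1 sample, edgeR called 0 higher and 0 lower of 16373 genes (183 at an unadjusted P under 0.05). A minimum log2 difference of 0 gave 256 and 178 genes, 1 of 2 gave 9 and 5, and complete separation of the libraries gave 163 and 90. On at 0.5 CPM gave 1 gene on, on at 2 CPM 0 off, off under 0.05 CPM 1 off, and off under 0.5 CPM 4 on and 6 off. Leaving out 1 library at a time gave 3424 to 3937 higher, 2771 to 3281 lower, 50 to 65 highest, 32 to 49 lowest, 0 on and 2 off.

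Of 7618 values of 166 named genes under the alternatives, 251 kept their sign but were no longer called, most often with counts summed per clone. Another 44 were called only in the alternative. Where the gene was called in the reported fit or in the alternative, 21 values had the opposite sign. They were Asns (-0.0939) and Shmt2 (-0.0654) in the first series alone, Cxcl16 (-0.34) and Cd81 (-0.19) in the second alone, Pdgfra without clone E (-0.17), and Pdgfra (-0.0229) and Col4a6 (-0.18) by limma with a pseudocount of 1. In coculture they were Cox8a (-0.0209), Oas2 (-0.71), Gbp7 (-0.89), Epas1 (-0.20), Fbln2 (0.23), Syp (1.03), Myc (0.38), Krt8 (-0.38) and Pdx1 (-0.47), and with summed counts Cxcl12 (-1.20), Col4a6 (-2.01), Dll1 (-0.33), Pdgfra (-0.41) and Cela1 (-0.13). The causes were not tested.

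With the replicate number as a block, 4005 genes were higher, 3448 lower, 58 highest and 42 lowest. The numbers were not taken to pair the libraries, since no label says that they mark a shared batch and the deviations from the clone means correlated over 0.1 in only 45 of 84 same-numbered pairs (-0.203 to 0.498). The data hint at some pairing, with a median correlation of 0.116 against -0.0472 for different numbers and 18 of 28 libraries correlating best with their own number. Depth was not limiting above the floor of 0.04374 CPM, which covers counting error only.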
